A study of Equus caballus with 4 samples.

Results

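The genes described here belong to the atrophy programme of skeletal muscle and to the signals that set it. They were 10 in number: the ubiquitin ligase genes FBXO32, TRIM63, CBLB and FBXO30, the transcription factor genes FOXO1 and FOXO3, and MSTN, INHBA, FST and ACVR2B from the activin and myostatin branch of signalling. All gene probes whose gene name on the array was exactly one of these symbols were taken, which gave 27 of 43603 gene probes. Of these, 25 probes of 9 genes were well above background on all 4 arrays in at least one channel and were tested.

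Expression was measured in satellite cells of the horse (stem cells of muscle, able to fuse and form myotubes) on day 3 of differentiation. The treated cells had received gamma-oryzanol (GO, a mixture of ferulic acid esters of plant sterols from rice bran) at 0.125 µM for 24 h, with H2O2 at 3 mM during the final 1 h. Controls went without GO. The labels leave unsaid whether the control cells were given H2O2, whereas the methods describe them as exposed to it, with the solvent DMSO in both groups. The cells came from the semitendinosus muscle of young stallions, and the methods state that a primary line was selected for the work, so that the replicates are taken as cultures and p-values measure the spread between these samples. The design names 4 control replicates, but the control carries the same replicate number in the description of every array. Whether each array had a control culture of its own is thus not settled, and if not, the control SDs and the p-values leave out the spread between control cultures. Treated RNA (red dye, Cy5) and control RNA (green dye, Cy3) were hybridised together on 4 two-colour Agilent horse arrays of 1 slide. The dyes were not swapped on any array, hence dye and treatment cannot be told apart.

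Myostatin (MSTN) and activin A, a dimer of the INHBA product, bind type II receptors such as ACVR2B, and follistatin (FST) captures both ligands outside the cell. The receptors activate SMAD proteins and restrain muscle growth. Active AKT keeps FOXO factors out of the nucleus, and when AKT activity drops, FOXO1 and FOXO3 drive transcription of FBXO32 (atrogin-1) and TRIM63 (MuRF1), the ligases best known as markers of muscle wasting. CBLB tags the insulin receptor substrate for degradation in unloaded muscle, and FBXO30 (MUSA1) is a ligase gene that BMP signalling holds down.

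The array read several of these genes with probes that overlap, and the sequences below show which readings were independent. They are the 60-base probe sequences of the deposited files, 5′ to 3′. For MSTN the pair lay end to end on the minus strand of chromosome 18 in build EquCab1, at chr18:55024960-55025019 and chr18:55024900-55024959. Joined, they made 120 bases with 1 reading frame open to the final base, where a stop codon (in capitals) stood.
MSTN A_69_P000672: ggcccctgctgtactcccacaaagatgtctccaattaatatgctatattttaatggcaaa
MSTN A_69_P000671: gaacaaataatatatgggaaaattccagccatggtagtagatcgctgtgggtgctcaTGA

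The TRIM63 probes shared 12 bases (in capitals) and lay at chr2:27768741-27768800 and chr2:27768789-27768848. Further probes, A_69_P086787 and A_69_P086786, followed the second sequence in steps of 1 base, so that TRIM63 was read at 2 sites and not at 4.
TRIM63 A_69_P086789: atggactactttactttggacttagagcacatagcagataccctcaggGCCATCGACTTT
TRIM63 A_69_P086788: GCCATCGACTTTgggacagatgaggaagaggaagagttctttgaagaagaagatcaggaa

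FOXO1 had a single probe, on the unplaced sequence of the build. FOXO3 had 9 probes at 3 sites. Of these, 5 were steps of 1 base over chr10:53239975-53240038, whose outermost members are shown with the 56 bases they share in capitals.
FOXO1 A_69_P040191: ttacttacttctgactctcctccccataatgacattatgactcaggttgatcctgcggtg
FOXO3 A_69_P118825: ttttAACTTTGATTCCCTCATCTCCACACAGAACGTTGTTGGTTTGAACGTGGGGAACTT
FOXO3 A_69_P118821: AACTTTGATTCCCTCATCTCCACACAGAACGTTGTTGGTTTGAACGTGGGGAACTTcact

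Across the 25 tested probes, 6 were higher with GO and H2O2 and 0 were lower after adjustment over all 24229 tested probes (limma, adjusted p under 0.05). Among all tested probes 17.1% were called in either direction and 9.49% were higher. The 6 probes belonged to TRIM63, FOXO1 and FOXO3. The mean log2 ratio, treated over control, was above 0 for 24 of 25 member probes with a median of 0.15, beside a median of 0.00 over all tested probes. At an unadjusted p under 0.05 there were 15 of 25 member probes (60%) and 36.7% of all tested probes. Member probes that overlap are not independent readings, so these counts weigh the genes unequally. Taken at the brightest tested probe of each gene, 2 of 9 genes (TRIM63 and FOXO1) were called, where 17.1% of all 13690 genes were. An unadjusted p under 0.05 was reached at that probe by 5 of 9 member genes and by 5020 of all 13690 genes.

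The size of the differences was small with the processing used here, in which background correction adds an offset of 50. Among the called probes the ratio ranged from 0.14 to 0.25 on the log2 scale, a 1.11-fold to 1.19-fold higher signal. The size depended on the processing. The ratio of each of these probes was larger with offset 0 (0.16 to 0.31) and with Agilent's processed signals (0.20 to 0.47). With median centring it was smaller (0.13 to 0.23). In whole cultures, a change in the share of a cell type and a change in RNA per cell cannot be told apart. Control and treated levels did not overlap between the 4 arrays for 4 of the 25 probes, and for 14.2% of all tested probes. These calls did not withstand the loss of an array: with replicate 1, 3 or 4 left out, 0 member probes were called, at which point between 0 and 38 probes were called on the whole array, and with replicate 2 left out 6 were.

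**Figure D1:**
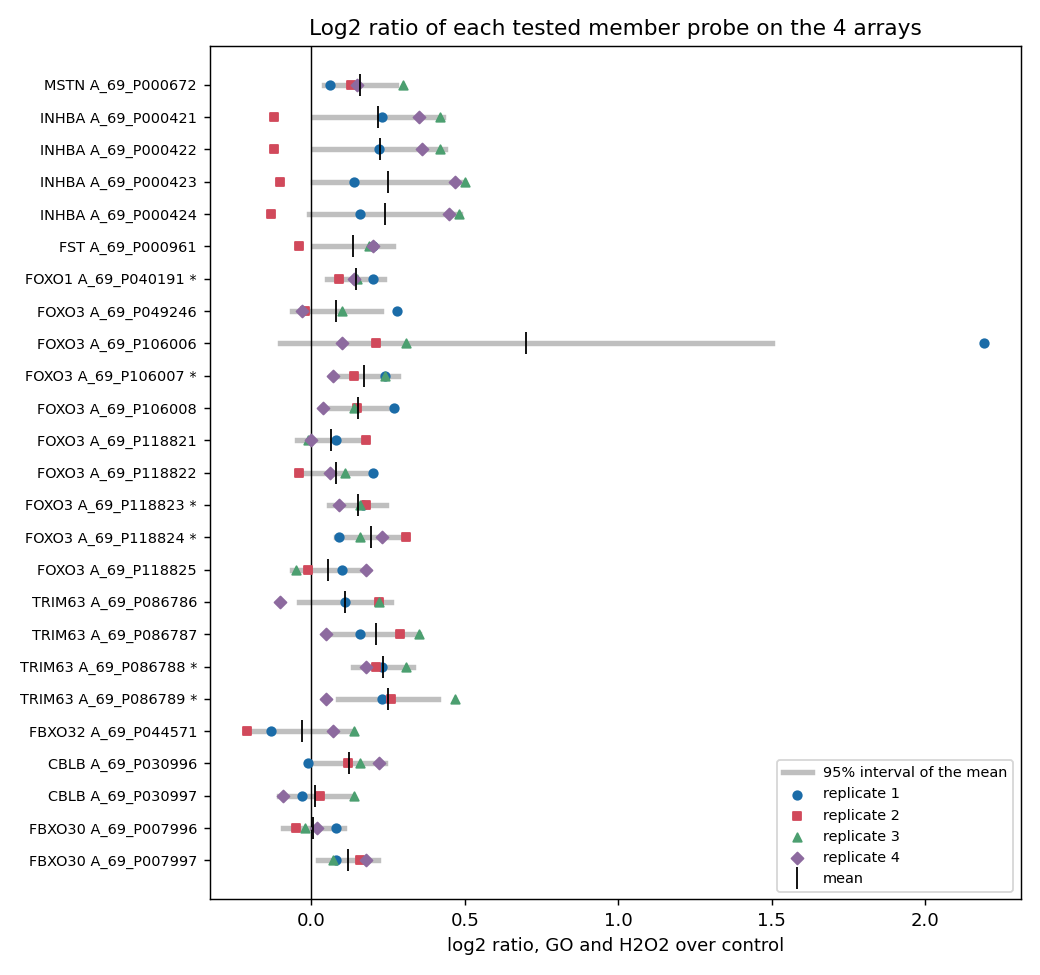
Log2 ratio (x axis, GO and H2O2 over control) of the 25 tested probes (y axis, grouped by gene), with a symbol for each of the 4 arrays, a tick for the mean and a grey bar for its 95% limma interval; an asterisk marks an adjusted p under 0.05. Most symbols lie between 0 and 0.5, INHBA and FST have replicate 2 below 0, and 1 FOXO3 symbol lies at 2.19.

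The arrays did not contribute alike. On replicates 1, 3 and 4 there were 22 of 25 member probes above 0, and on replicate 2 there were 15. Over all tested probes, 47.3%, 52%, 50.6% and 51.1% were above 0 on replicates 1 to 4.

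MSTN was read above background by the first of its probes. Its log2 level in control cells was 7.24, 7.36, 7.22 and 7.45 on replicates 1 to 4. The treated level was 7.31, 7.49, 7.52 and 7.60 on the same arrays. The treated culture was the higher on all 4 arrays, although the ranges of the groups overlapped. The ratio was 0.16 ± 0.10 (SD, n = 4), with a 95% interval of 0.04 to 0.28, and it missed the threshold (adjusted p = 0.0673). The call depended on the processing. With Agilent's processed signals the ratio was 0.30 (adjusted p = 0.0275) and without background correction it was 0.24 (adjusted p = 0.0241). The probe was called under 3 of 15 alternative settings, the third being the series matrix, whose ratios repeat Agilent's. Its adjusted p was between 0.092 and 0.173 with an array left out and 0.795 with median centring. The adjoining MSTN probe, which ends on the stop codon, was not well above background on any array in either channel.

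INHBA, the activin A subunit gene, was read by 4 probes in steps of 1 base (chr4:12890043-12890105, minus strand), hence at a single site. At the brightest, A_69_P000422, the control level was 11.86, 11.99, 11.78 and 11.32, and the treated level was 12.08, 11.87, 12.21 and 11.68. The treated culture was the higher on replicates 1, 3 and 4 and the lower on replicate 2. The ratio was 0.22 ± 0.24 (SD, n = 4, adjusted p = 0.123). Over the other 3 probes the mean ratio was between 0.22 and 0.25, the adjusted p was between 0.126 and 0.145, and replicate 2 was below 0 on every one. One of them was printed on 5 spots, whose ratios on replicate 2 ran from −0.16 to −0.10. The opposite sign of replicate 2 was therefore seen on each spot of that probe. Without replicate 2 the ratio of A_69_P000422 was 0.34 (adjusted p = 0.0200). With replicate 1, 3 or 4 left out it was between 0.16 and 0.22 and was not called (adjusted p between 0.263 and 0.333).

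FST, whose product binds and holds activin and myostatin, had a single probe (chr21:14378171-14378230). The control level was 10.28, 10.42, 10.22 and 10.50, and the treated level was 10.48, 10.38, 10.40 and 10.70. As for INHBA, replicate 2 alone was lower in the treated culture, at a ratio of −0.04 against 0.19 to 0.20 on the others. The mean ratio was 0.14 ± 0.12 (SD, n = 4, adjusted p = 0.119), and without replicate 2 it was 0.20 (adjusted p = 0.0387). With replicate 1, 3 or 4 left out it was between 0.115 and 0.121 (adjusted p between 0.266 and 0.314). The run without replicate 2 was the only 1 of 15 alternative settings that called FST.

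ACVR2B, a type II receptor for both ligands, was not measurable with its probe. Its single probe spanned 1610 bases of chromosome 16, more than its own length, so its bases are split over distant stretches of the genome. It was well above background on 0 arrays in the control channel and on 1 in the treated channel, and was not tested.

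**Figure D2:**
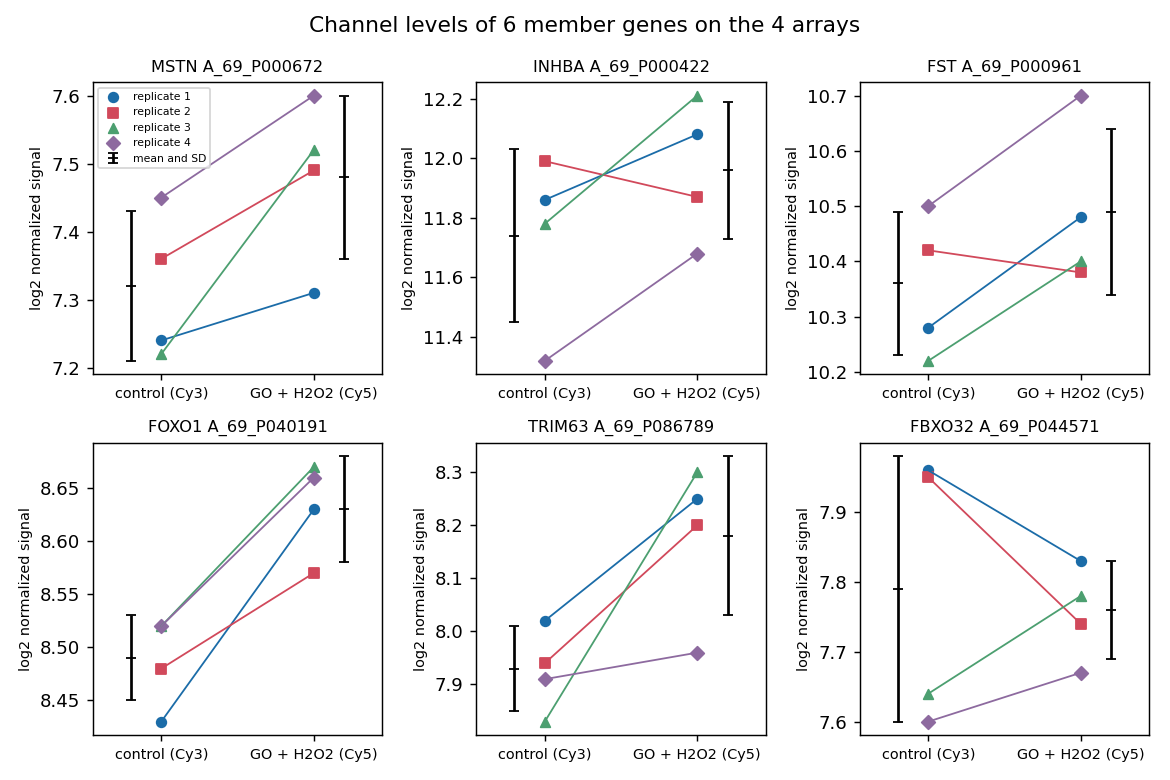
Log2 normalised signal (y axis, a scale of its own in each panel) in control and treated cells for MSTN, INHBA, FST, FOXO1, TRIM63 and FBXO32, with a line joining the 2 channels of each of the 4 arrays and the mean and SD at the sides. Every line slopes up for MSTN, FOXO1 and TRIM63, the line of replicate 2 slopes down for INHBA and FST, and the lines of replicates 1 and 2 slope down for FBXO32.

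FOXO1, which encodes a factor that activates the ligase genes, was higher in treated cells on each array, by 0.20, 0.09, 0.15 and 0.14 on replicates 1 to 4. The control level was 8.43, 8.48, 8.52 and 8.52, and the treated level was 8.63, 8.57, 8.67 and 8.66. All treated cultures lay above all controls. The ratio was 0.14 ± 0.04 (SD, n = 4, adjusted p = 0.0497), which is 1.11-fold. The adjusted p stood at the edge of the threshold: it was 0.0501 when both channels had to be above background and 0.0552 without a filter. The probe was called under 4 of 15 alternative settings, with a ratio above 0 in all of them.

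FOXO3, the close relative of FOXO1, gave a mixed reading over its 9 probes. All 9 mean ratios were above 0. Called as higher were A_69_P118824 with 0.20 ± 0.10 (adjusted p = 0.0408), A_69_P118823 with 0.15 ± 0.04 (adjusted p = 0.0439) and A_69_P106007 with 0.17 ± 0.08 (SD, n = 4 for each, adjusted p = 0.0455). The first 2 of these are neighbours by 1 base, and their treated and control ranges did not overlap. The other 3 probes of the same 64-base stretch had ratios of 0.06 to 0.08 and missed the threshold, with adjusted p between 0.269 and 0.451. Probes that share nearly all of their bases thus fell on both sides of the threshold. A_69_P106008, which overlaps A_69_P106007, had 0.15 ± 0.10 (SD, n = 4) and was not called (adjusted p = 0.074). Of 15 alternative settings, A_69_P118824 was called under 8, A_69_P118823 under 5 and A_69_P106007 under 5. Their ratios were above 0 in all of them.

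The brightest FOXO3 probe, A_69_P049246 (chr10:53240709-53240768), was not called. Its control level was 8.30, 8.53, 8.46 and 8.35, and its treated level was 8.57, 8.51, 8.56 and 8.32. Treated cells were higher on replicates 1 and 3 only, and the ratio was 0.08 ± 0.15 (SD, n = 4, adjusted p = 0.367). Without replicate 1 it was 0.02 (adjusted p = 0.875).

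The FOXO3 probe A_69_P106006 held the largest single ratio of the member probes. It shares 40 bases with A_69_P106007, and the 20 bases that it alone reads are tgggcgtcacaagcatttga. Its ratio was 2.19, 0.21, 0.31 and 0.10 on replicates 1 to 4, where A_69_P106007 had 0.24, 0.14, 0.24 and 0.07. On replicate 1 the red background around this spot was 611.5 scanner units, against 38 to 47 on the other arrays, and the scanned red signal was 1397 against 283 to 366.1. The green control signal of replicate 1 was low, at 152.1 scanned against 209.2 to 283.2. Its control log2 level was 7.12 against 8.05 to 8.27. The ratio was 0.70 ± 1.00 (SD, n = 4, adjusted p = 0.179) with this spot and 0.20 (adjusted p = 0.0642) without it, an alternative chosen after the value had been seen.

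**Figure D3:**
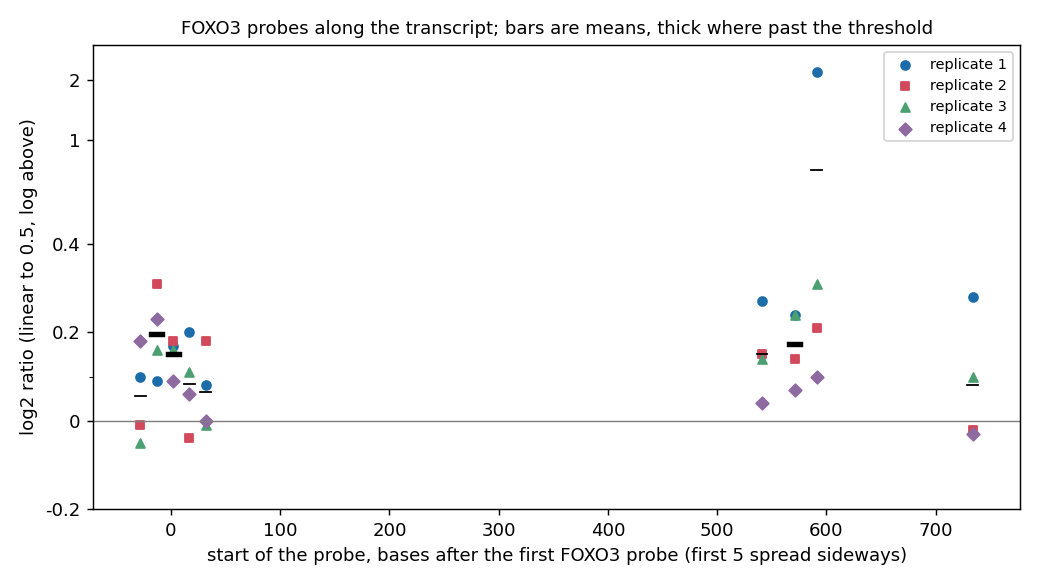
Log2 ratio (y axis, linear up to 0.5 and logarithmic above) of the 9 FOXO3 probes on each of the 4 arrays, against the start of the probe in bases after the first (x axis; the first 5 are spread sideways). Bars are means and are thick for the 3 probes past the threshold; the symbol at 2.19 is replicate 1 of A_69_P106006.

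TRIM63, the gene of the ligase MuRF1 that marks sarcomere proteins for the proteasome, was higher at both of its sites. At A_69_P086789 the control level was 8.02, 7.94, 7.83 and 7.91, and the treated level was 8.25, 8.20, 8.30 and 7.96. The treated culture was higher on all 4 arrays, by the least on replicate 4. The ratio was 0.25 ± 0.17 (SD, n = 4, adjusted p = 0.0497), 1.19-fold.

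At the second TRIM63 site, A_69_P086788 had control levels of 7.61, 7.69, 7.63 and 7.54 and treated levels of 7.84, 7.90, 7.95 and 7.72. Here the groups did not overlap, and the ratio of 0.23 ± 0.06 (SD, n = 4, adjusted p = 0.0214) had the smallest adjusted p of the member probes. The next probes in steps of 1 base, A_69_P086787 and A_69_P086786, had ratios of 0.21 ± 0.14 (adjusted p = 0.0511) and 0.11 ± 0.15 (adjusted p = 0.243). On replicate 4 the last of these was below 0 (−0.10). A_69_P086788 was called under 9 of 15 alternative settings and A_69_P086789 under 2 of 15, with the ratio above 0 in all of them.

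FBXO32, the gene of atrogin-1 and the usual companion of TRIM63 in atrophy, did not differ detectably. Its single probe (chr9:61087770-61087829, minus strand) gave control levels of 7.96, 7.95, 7.64 and 7.60 and treated levels of 7.83, 7.74, 7.78 and 7.67. Treated cells were lower on replicates 1 and 2 and higher on replicates 3 and 4. The ratio was −0.03 ± 0.17 (SD, n = 4, adjusted p = 0.765), with a 95% interval of −0.19 to 0.13. That interval leaves room for a difference of either sign, and the difference between FBXO32 and TRIM63 was not tested.

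CBLB and FBXO30 each had a pair of probes, of which the CBLB pair overlapped, and neither gene was called. The brighter CBLB probe had a ratio of 0.01 ± 0.10 (SD, n = 4, adjusted p = 0.862) and the other 0.12 ± 0.10 (SD, n = 4, adjusted p = 0.119), the latter being above background in the control channel on only 2 arrays. The brighter FBXO30 probe had a ratio of 0.01 ± 0.06 (SD, n = 4, adjusted p = 0.921). Its neighbour, end to end with it on chromosome 31, had 0.12 ± 0.06 (SD, n = 4, adjusted p = 0.0849) and was higher on all 4 arrays.

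Further genes of these pathways were counted from a list of 62, of which 58 were on the array and 43 were tested. Among these, 6 were higher and 2 were lower, beside 17.1% called among all genes. The median ratio of the 43 was 0.04, beside 0.01 over all genes. Of the 3 tested ligand and antagonist genes (FSTL1, FSTL3 and DCN), 0 were called, and of 8 receptor and SMAD genes SMAD2, the signal carrier of activin and myostatin, was higher at 0.18 ± 0.09 (adjusted p = 0.0425) at its brightest probe. The other 5 tested SMAD2 probes were not called and had the opposite sign, with ratios from −0.15 to −0.05. Of 9 genes of the insulin, AKT and FOXO branch, AKT1 was higher at 0.18 ± 0.08 (adjusted p = 0.0410). Of 6 FOXO target genes, EIF4EBP1, a brake on translation, was higher at 0.16 ± 0.05 (SD, n = 4 for each, adjusted p = 0.0409).

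The ubiquitin ligases and their partners differed in direction. Of 13 tested, TRIM54 (MuRF3), a relative of TRIM63, was higher at 0.29 ± 0.21 (adjusted p = 0.0483) and STUB1, the chaperone-linked ligase CHIP, at 0.25 ± 0.08 (adjusted p = 0.0221). The TRIM54 ratio was 0.61 on replicate 1 and 0.17, 0.18 and 0.22 on replicates 2 to 4. NEDD4 was lower at −0.27 ± 0.11 (SD, n = 4 for each, adjusted p = 0.0251). It was lower on all 4 arrays, by −0.42, −0.30, −0.18 and −0.18. The other tested NEDD4 probe was not called, at −0.17 (adjusted p = 0.0772). Of 4 regulators and substrates, MYOG, the factor of terminal differentiation, was higher at 0.33 ± 0.13 (adjusted p = 0.0212), and EIF3F, a translation factor subunit that atrogin-1 targets, was lower at −0.15 ± 0.05 (SD, n = 4 for each, adjusted p = 0.0466).

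**Figure D4:**
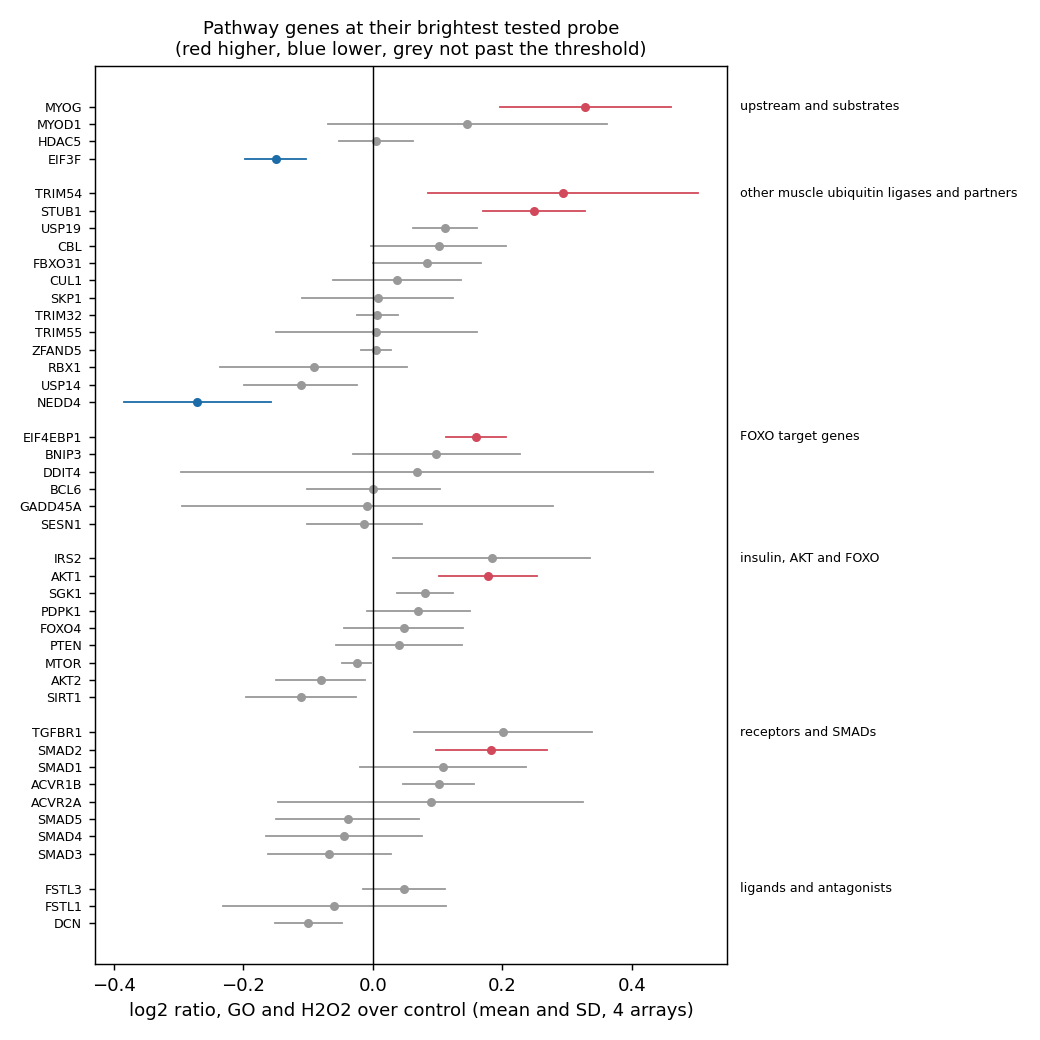
Log2 ratio (x axis, mean and SD over 4 arrays) of the 43 tested pathway genes at their brightest probe, grouped by role. Red marks the 6 genes past the threshold that were higher, blue the 2 that were lower (NEDD4 and EIF3F) and grey the rest.

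Marker genes of muscle were detected. Of 8 myogenic markers 7 were tested (PAX7 did not pass the filter on background). MYOG, MYH3 and CKM were called as higher, beside 17.1% called among all genes, while MYF5, MYOD1, DES and ACTA1 were not, with adjusted p between 0.0613 and 0.809. The summed signal of the 7, normalised and linear, was 126400 to 139400 in control cells and 146300 to 172900 in treated cells. MYH3 made up 44.8% of this sum and ACTA1 39.4%, at mean log2 signals of 16 and 15.81. Very bright probes were higher in general: the 405 probes above a log2 signal of 16 had a median ratio of 0.139, beside 0.00115 for the others. Whether the myogenic sum differed beyond what such brightness brings was not tested. Of 4 fibroblast markers 2 were tested, and THY1 was called at 0.28 ± 0.14 (SD, n = 4, adjusted p = 0.0290). COL1A1 was not called, at 0.24 ± 0.31 (SD, n = 4, adjusted p = 0.157). Their sum, of which COL1A1 made up 97.9%, was 24140 to 29130 in control and 27670 to 38430 in treated cells. None of the 3 adipocyte and 3 endothelial markers passed that filter. For leukocytes CD68 was tested and not called (ratio 0.00 ± 0.06, SD, n = 4, adjusted p = 0.942). Of the 15 probes described as PTPRC 7 were tested, with ratios from −0.06 to 0.61 and 6 called as higher. Mean log2 signals of these 7 probes ran from 6.84 to 13.71, so that they disagreed widely on the level of the gene. The sum for CD68 and the brightest of these was 10410 to 12520 in control and 15100 to 17080 in treated cells, and 98.9% of it was that 1 PTPRC probe. The part of these marker differences in the differences of TRIM63, FOXO1 and FOXO3 was not tested.

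The genes whose 4 ratios lay nearest to those of FBXO32 and MSTN were found by Euclidean distance over the arrays among 13690 genes. For FBXO32 they were HRASLS2 (distance 0.0364), HSPG2 (0.0471) and TM9SF2 (0.0495). For MSTN they were ELMOD3 (0.0339), MTF1 (0.0418) and QKI (0.0425). With 4 arrays such nearness describes these arrays only.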

How the data were processed

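The authors deposited spot intensities per array, which came from Agilent Feature Extraction (10.10.1.1, per the file headers), and log10 ratios of the processed red over green intensity, which the series matrix repeats. Agilent's processing subtracted the background and normalised between the dyes. Here the mean intensity of each spot was corrected by its background median (normexp, offset 50) and normalised by loess within each array, control spots having weight 0. Outlier spots (7 to 16 per array) were dropped, spots of a probe averaged, and probes kept that were well above background on all 4 arrays in red or in green. Between 54.9% and 61.4% of spots were well above background per channel, and 0 gene spots were saturated. The log2 ratio is red over green, as the labels give the dyes. Log2 levels were scaled between arrays with Aquantile, and levels of different probes were set together only to choose the brightest probe of a gene and to sum marker signals. Ratios were tested against 0 in a two-sided test with limma version 3.58.1 (R version 4.3.3). P-values were adjusted by Benjamini-Hochberg over 24229 probes, with a threshold of 0.05. The fitting step alone was run on simulated ratios with independent noise. The check there was recovery of a change larger than the mean ratio of any member probe. Intervals are 95% limma intervals.

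Named genes were every member, at most 4 called genes of each pathway role, and the 3 nearest genes to FBXO32 and MSTN. Pathway genes stand at the tested probe with the highest mean signal. Of 16 list genes without a symbol, 12 were named by their probe descriptions. Members and lists were chosen with earlier results of these data known. Positions are in EquCab1, whose annotation was not used here, so exons and UTRs were not assigned.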

Additional observations from a re-analysis of the deposited data

Results flagged for a closer look

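Among the 25 tested probes, 2 had an array whose ratio lay far from the other 3, where chance would mark about 1 in 20. For the FOXO3 probe A_69_P106006 it was replicate 1, with a log2 ratio of 2.19. For FST it was replicate 2, with a log2 ratio of −0.04.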

How the results depend on the processing

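Against 6 called member probes, 0 were called with median centring in place of loess, 0 by the methods' t-test, 0 with the channels as 8 separate samples and no replicate block, and 3 after a running median over signal was removed. Leaving out each array gave 0 to 6. Against 2 called genes at the brightest probe, 1 was called without a filter and 1 with the mean over probes, and 0 with normexp offset 0, with median centring, after the running median, with both channels above background, by the methods' t-test and with no replicate block. Leaving out each array gave 0 to 2. Against 8 called pathway genes there were 3 with normexp offset 0, 0 with median centring, 5 after the running median, 0 by the methods' t-test and 1 with no replicate block, and 0 to 5 with an array left out. The cause was not tested. On the whole array the count of called probes was 4137, and it was 12 with median centring, 5 by the methods' t-test and 601 with no replicate block.

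At the brightest tested probe, or as the mean over probes, TRIM63, FOXO1, FOXO3, MSTN, FST and INHBA kept a ratio above 0 under every alternative run. The calls were less stable: TRIM63 lost its call in 14 runs and kept it in 2, and FOXO1 lost its call in 11 and kept it in 5. Genes with a ratio near 0 changed sign. FBXO32 was at 0.00139 under both Agilent's processed signals and the ratios of the series matrix, and between −0.0894 and 0.0289 with an array left out. CBLB was at −0.0164 with median centring and between −0.0296 and 0.0481 with an array left out. FBXO30 was at −1.59e-05 with normexp offset 0, −0.0100 with median centring and −0.00341 after the running median, and between −0.0187 and 0.0271 with an array left out. Signal over background limits ACVR2B and one MSTN probe, for which no difference was measurable.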
